A study of Mus musculus and Homo sapiens with 14 samples.

Results

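The genes described here are 49 genes of the ATF4-driven amino acid and integrated stress response, chosen by symbol from a list drawn up with earlier results of these data known. All 49 were found among the 26221 mouse genes with a symbol and, as the same symbols in capitals, among the 27945 human genes. They were ordered by role into 12 regulators, 7 serine and folate enzymes, 9 other amino acid enzymes, 8 transporters, 11 genes of tRNA charging and tRNA export, and 2 secreted or surface targets. A filter on low counts left 46 of them to test in splenic plasma cells, 44 in MPC-11 and 46 in MM.1S.

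The integrated stress response starts from kinases that phosphorylate the translation factor eIF2: PERK under load in the endoplasmic reticulum, GCN2 when amino acids are short, PKR with double-stranded RNA and HRI with haem shortage or mitochondrial stress. Phosphorylated eIF2 slows protein synthesis in general while the mRNA of the transcription factor ATF4 is translated more. ATF4 then binds with C/EBP partners at short elements near genes for amino acid synthesis, amino acid import and tRNA charging. Plasma cells and myeloma cells secrete large amounts of antibody, which draws on amino acids and on the folding capacity of the endoplasmic reticulum. ATF4 is controlled largely at translation, so its mRNA level is only a part of its activity.

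RNA sequencing covered 14 libraries, 10 from mouse and 4 from human cells, and addressed what the transcription factor IRF4 does in plasma cells that already exist. The splenic arm compared plasma cells labelled Irf4 flox/- with those labelled Irf4 flox/+, each with 2 libraries of C57BL/6 cells; the control thus carries a single conditional allele beside an intact one. Donor bone marrow had been placed in congenic hosts together with uMT marrow, which cannot make B cells, and tamoxifen was given on days 1, 2, 7 and 8 before harvest on day 14. The labels used here do not name the Cre driver or the age of the mice. In the cell line arm, MPC-11 (a mouse plasmacytoma line) and MM.1S (a human myeloma line) carried Cas9 together with an IRF4 guide RNA or with the vector alone, received doxycycline and were sorted on day 3, with 2 libraries per condition. The guide libraries of MPC-11 are labelled Irf4 -/-. The reference is 1 library of wild-type follicular B cells from spleen and 1 library of plasma cells from bone marrow. Nothing in the labels says that the 2 libraries of a group came from separate mice or cultures, so p-values measure only the spread between these libraries, which may be technical.

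The element that ATF4 and C/EBP proteins share in many of these genes is spelled TGATGNAA, or TTNCATCA when read on the other strand. RefSeq promoter windows (GRCm38.p6; 250 bases before to 50 after each start) were at hand for 41 of the 49 mouse genes. Eif4ebp1, Aldh1l2, Cth, Slc7a5, Slc1a5, Wars, Nars and Lars were not matched. The element stood in 15 of the 41 windows (36.6%), against 3.97% of all 32851 windows of the same length. The narrower spelling TGATGCAA, which is contained in the first, stood in 11 of the 41 (26.8%) against 0.895% of all. Both strands were searched, and a match describes letters, not a bound site. The genes were listed as targets of the response, so a high share is part of how the list came about. The windows below show the element as it stands in the first genes by role. Capitals mark the element, and every sequence runs 5′ to 3′ along the gene's strand.
Atf3: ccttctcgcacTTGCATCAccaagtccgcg
Nupr1: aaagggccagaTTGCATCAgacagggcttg
Asns: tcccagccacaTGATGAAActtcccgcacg
Pck2: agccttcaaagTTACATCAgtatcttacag
Pycr1: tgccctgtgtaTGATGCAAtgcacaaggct
Got1: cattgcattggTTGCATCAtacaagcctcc
Chac1: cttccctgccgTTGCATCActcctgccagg
Slc7a11: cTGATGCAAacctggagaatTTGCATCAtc

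The windows stand at chr1:191183425-191183454 for Atf3, chr7:126625562-126625591 for Nupr1, chr6:7693214-7693243 for Asns and chr11:120643833-120643862 for Pycr1, all on the minus strand. Those of Got1 (chr19:43524689-43524718) and Slc7a11 (chr3:50443651-50443680) are on the minus strand too, and those of Pck2 (chr14:55540152-55540181) and Chac1 (chr2:119351038-119351067) on the plus strand. The element begins 23 bases before the start of Asns, 193 before that of Chac1, and 102 to 110 before those of Got1, Pck2, Pycr1, Nupr1 and Atf3. The window of Slc7a11 holds 2 copies facing each other, which begin 66 and 47 bases before the start. Trib3, Slc1a4, Aars, Gars, Tars, Iars and Vldlr held the element as well. Among windows of the serine and folate enzymes that were at hand, from Phgdh to Mthfd1l, none held it, which says only that these letters were absent from these windows. TGACGTCA, the element of cAMP-responsive factors, stood in 1 of the 41 windows, that of Ppp1r15a, and in 1.79% of all windows. In MPC-11 the median log2 fold change of guide over empty vector was -0.26 for the 11 genes with TGATGNAA that were tested and -0.01 for the 25 without. In splenic plasma cells the medians were -0.41 for 14 genes and -0.31 for 24.

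Mouse libraries held from 18.7e6 to 27.0e6 counts, and human libraries from 19.3e6 to 21.6e6. Values below are CPM, counts per 1e6 counts of the library scaled by TMM, a factor that sets the bulk of genes level between libraries. Irf4 itself was lower with the guide in both lines and was not lower in the flox/- libraries. In MM.1S the empty vector libraries had 489 and 434 CPM of IRF4 and the guide libraries 142 and 191. In MPC-11 the empty vector libraries had 467 and 496 CPM and the guide libraries 276 and 146, so transcript from the locus was still present in libraries labelled Irf4 -/-. In splenic plasma cells Irf4 stood at 82.7 and 99.8 CPM in flox/- and 114 and 53.8 in flox/+, and every splenic difference below is between libraries labelled that way. The libraries are bulk RNA, in which fewer cells of a type and less RNA per cell cannot be told apart. Per the labels the libraries were made with a kit that does not mark strand, so reads from overlapping antisense genes are included. SLC7A5, PSAT1 and ATF4 have near-identical copies elsewhere in the human genome, and the way such reads were counted is not given in the sources used here.

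In MM.1S most genes of the response stood lower with the IRF4 guide than with the empty vector. Of 46 genes tested, 41 had a log2 fold change below 0 and 5 above, where 49.3% and 50.7% of all 12696 genes tested lay below and above 0. Their median was -0.71, against 0.01 for all genes. Both guide libraries lay below both empty vector libraries for 32 of the genes and above for 2, while 18.9% and 22.4% of all genes separated that way. At an unadjusted p under 0.05 (edgeR), 23 were lower and 1, ALDH18A1, higher (background 4.58% and 5.42%). After adjustment over all genes edgeR called 0 of the 46 (background 0.00788% lower, a single gene, and 0% higher). DESeq2 called 13 lower and 0 higher (background 1.34% and 1.53%). In simulated data at the spread of these libraries edgeR recovered 4.48% of genes changed 2-fold and DESeq2 28.4%. The same simulated data also held 4-fold and 8-fold changes. Over all unchanged genes, edgeR made 1 false call and DESeq2 34.

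The serine and folate enzymes were lower in every member, with a median of -1.03 and 7 of 7 genes without overlap between the groups. PHGDH, which takes a glycolytic intermediate into serine synthesis, stood at 293 and 142 CPM with the empty vector and 64.4 and 68.0 with the guide. Its log2 fold change was -1.72 ± 0.35 (SE; edgeR adjusted p = 0.257, DESeq2 adjusted p = 9.6e-05). PSAT1, the next enzyme of the same pathway, stood at 321 and 153 against 69.9 and 87.2, a log2 fold change of -1.59 ± 0.37 (edgeR adjusted p = 0.278, DESeq2 0.000621). In both genes the lower empty vector library was well above the higher guide library. PSPH, the last enzyme of the pathway, stood at 71.4 and 47.6 against 31.4 and 41.0.

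In the mitochondrial folate branch, which moves the carbon unit released from serine, the same order of groups was seen. SHMT2, which splits serine into glycine and a folate-bound carbon, stood at 711 and 438 CPM and, with the guide, at 298 and 322 (-0.89 ± 0.26; edgeR adjusted p = 0.340, DESeq2 0.0278). MTHFD2, which oxidises that carbon unit, stood at 151 and 109 against 88.6 and 72.7 (-0.69 ± 0.25; edgeR adjusted p = 0.422). MTHFD1L, which releases it as formate, stood at 34.5 and 29.7 against 14.7 and 16.6. ALDH1L2, the mitochondrial enzyme that oxidises formyl-folate, had the smallest p of all 46 genes: 39.3 and 32.1 CPM with the empty vector, 5.28 and 6.94 with the guide and a log2 fold change of -2.54 ± 0.32 (edgeR adjusted p = 0.128, DESeq2 5.2e-08). Its empty vector libraries lay close to each other and far above both guide libraries.

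**Figure D1:**
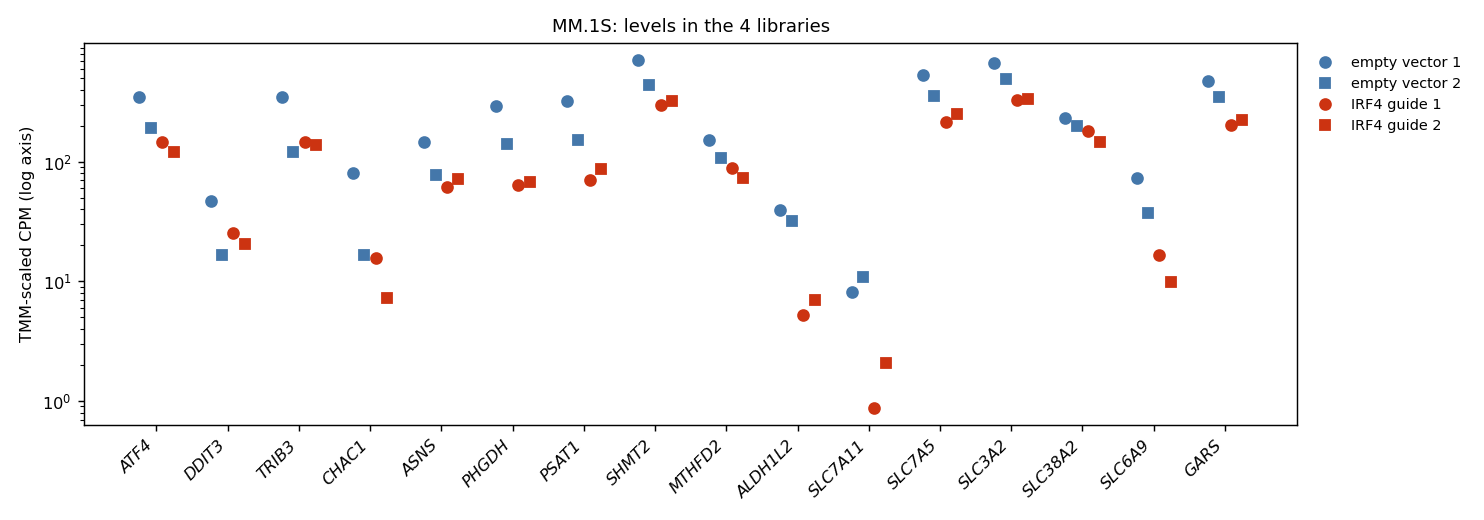
TMM-scaled CPM (log axis) of 16 genes of the response in the 4 MM.1S libraries; each point is a library, blue for the empty vector and red for the IRF4 guide, circles for library 1 and squares for library 2. For PHGDH, PSAT1, ALDH1L2, SLC7A11, SLC6A9 and GARS both red points lie well below both blue ones, while for DDIT3 and TRIB3 the second empty vector library lies below both guide libraries.

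The transporters followed, with a median of -0.96, all 8 below 0 and 7 without overlap. SLC7A11, the cystine importer of system xc-, stood at 8.17 and 10.9 CPM with the empty vector and 0.880 and 2.08 with the guide, a log2 fold change of -2.68 ± 0.65 (edgeR adjusted p = 0.305, DESeq2 0.0161). SLC6A9, a glycine transporter, stood at 73.5 and 37.6 against 16.7 and 9.81 (-2.07 ± 0.43; edgeR adjusted p = 0.259, DESeq2 0.000516). These 2 genes had the largest fold changes of the group.

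SLC7A5, the light chain of the large neutral amino acid exchanger, stood at 530 and 355 CPM against 215 and 251 (-0.92 ± 0.24; edgeR adjusted p = 0.312, DESeq2 0.0126). Its heavy chain partner SLC3A2 stood at 674 and 490 against 332 and 333 (-0.81 ± 0.21; edgeR adjusted p = 0.310, DESeq2 0.0145). SLC38A2, a glutamine and alanine importer, had the smallest difference, 233 and 199 against 181 and 147 (-0.40 ± 0.21; edgeR adjusted p = 0.637). All 3 separated the groups. The glutamine exchanger SLC1A5 stood at 1136 and 674 CPM against 379 and 486 (-1.07 ± 0.28), without overlap. It passed the threshold in DESeq2 (adjusted p = 0.00915) but not in edgeR (adjusted p = 0.312).

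Among the other amino acid enzymes, with a median of -0.78, single libraries weighed more. ASNS, which makes asparagine, stood at 146 and 78.4 CPM with the empty vector against 61.1 and 71.9 with the guide, a log2 fold change of -0.75 ± 0.33 (edgeR adjusted p = 0.509); the groups did not overlap, by a narrow margin. CHAC1, a glutathione-degrading enzyme induced downstream of ATF4, stood at 80.3 and 16.5 against 15.8 and 7.31 (-2.07 ± 0.74; edgeR adjusted p = 0.416, DESeq2 0.0536), so 1 empty vector library carried most of the difference. PYCR1, the last step of proline synthesis, stood at 197 and 155 against 101 and 91.3 (DESeq2 adjusted p = 0.0118). ALDH18A1, the first step of that pathway, went the other way, at 99.4 and 113 against 143 and 187. PCK2, the mitochondrial PEP carboxykinase, stood at 46.9 and 0.778 CPM with the empty vector and 17.3 and 12.2 with the guide, so its 2 control libraries lay on either side of both guide libraries.

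The tRNA charging genes were lower by less. Their summed level was 4184 and 3255 CPM with the empty vector and 2409 and 2653 with the guide, with a median log2 fold change of -0.48 and 9 of 11 genes without overlap on the lower side. GARS, the glycyl-tRNA synthetase, stood at 474 and 348 CPM against 203 and 223 (-0.95 ± 0.22; edgeR adjusted p = 0.278, DESeq2 0.00283), and EPRS at 456 and 457 against 284 and 318. LARS, the leucyl-tRNA synthetase, was the exception, at 143 and 129 CPM against 159 and 202. Both guide libraries were above both controls for LARS.

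Of the 11 regulators tested, 9 were below 0 and 2 above, and 4 separated the groups, all on the lower side. ATF4 stood at 351 and 193 CPM with the empty vector and 145 and 121 with the guide, a log2 fold change of -1.03 ± 0.31 (edgeR adjusted p = 0.343, DESeq2 0.0316), with no overlap. DDIT3, which encodes CHOP, stood at 46.9 and 16.7 against 25.3 and 20.6 (-0.47 ± 0.48; edgeR adjusted p = 0.851). TRIB3, a pseudokinase that dampens ATF4, stood at 349 and 121 against 148 and 138 (-0.71 ± 0.45; edgeR adjusted p = 0.713). For DDIT3 and TRIB3 the groups overlapped, with the second empty vector library below both guide libraries. DDIT4 stood at 768 and 157 against 859 and 155, high in library 1 and low in library 2 of both groups. VLDLR, a surface target, had the same arrangement, at 33.6 and 2.96 against 30.2 and 8.84. NUPR1 and STC2 had no count in any of the 4 human libraries.

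The 2 empty vector libraries differed from each other in these genes. The first was above the second for 40 of the 46 genes, and over 1.5 times above for 21, among them 7 of the 11 regulators and 1 of the 11 tRNA genes. The share of all genes that did so was not counted. The 49 genes together took 1.26% and 0.845% of counts in the empty vector libraries and 0.690% and 0.668% in the guide libraries. Without the first empty vector library the median of the 46 genes was -0.39, with 34 below 0, and that of the regulators was 0.00. The medians were then -0.92 for serine and folate enzymes, -0.58 for transporters, -0.39 for tRNA genes and -0.28 for other amino acid enzymes. TRIB3 stood at 0.25 and DDIT3 at 0.46 in that fit. Without the second empty vector library the median of all 46 was -1.05.

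Calls by edgeR depended on the libraries and settings used. PHGDH, PSAT1, ALDH1L2 and SLC6A9 each passed in 5 of 11 alternatives, among them DESeq2, edgeR without a filter on low counts, and edgeR without either empty vector library. With each library left out in turn, log2 fold changes ran from -2.17 to -1.10 for PHGDH and -2.05 to -0.96 for PSAT1. They ran from -2.76 to -2.36 for ALDH1L2, -2.50 to -1.50 for SLC6A9 and -3.43 to -2.19 for SLC7A11. VLDLR went the other way, at 2.72, without the first empty vector library. Such fits leave 1 sample in a group, and the number of these genes called by edgeR varied with the library left out. Leaving out either guide library gave 0. ATF4 and GARS passed in 4 of 11, and neither passed without the first empty vector library.

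**Figure D2:**
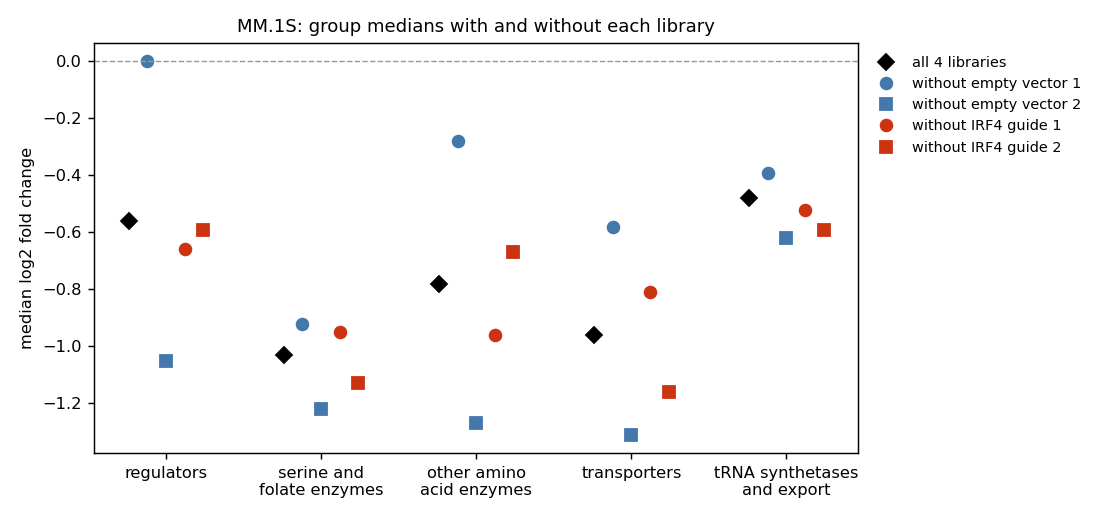
Median log2 fold change (IRF4 guide over empty vector) of each group of genes in MM.1S with all 4 libraries (black diamonds) and without each library in turn (blue, an empty vector library left out; red, a guide library left out). Without the first empty vector library the regulators lie at 0.00 while the serine and folate enzymes lie at -0.92.

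Some cell cycle markers differed between the same groups. The 10 genes summed to 2358 and 2949 CPM with the empty vector and 1623 and 2059 with the guide. Of these, 9 were below 0, and none was at 0 counts. At an unadjusted p under 0.05 in edgeR 5 were lower and 0 higher (background 4.58% and 5.42%). The 5 were MCM2, MCM3, MCM5, MCM6 and PCNA. MKI67, TOP2A, CCNB1 and CDK1 lay from -0.33 to -0.07, and CDC20 at 0.13. Markers of T, NK and erythroid cells and neutrophils summed to at most 18.3 CPM in any MM.1S library. The macrophage and monocyte list added up to 162 and 120 CPM with the empty vector and 163 and 155 with the guide. ADGRE1 was lower without overlap, at 27.4 and 20.2 against 17.3 and 17.0, and CD68 had a log2 fold change of -0.11. The rest, 3 of 5 tested, were higher at an unadjusted p under 0.05 in edgeR (background 5.42%). Among them CTSS stood at 51.3 and 36.7 against 66.8 and 78.0, and ITGAM at 0 and 0 against 2.79 and 1.57, while C1QA, C1QB, C1QC, VCAM1, MARCO and SPIC had no count in any of the 4. B cell markers summed to 85.9 and 99.3 against 111 and 114, with MS4A1, CD22 and PAX5 at 0 in all 4. Plasma cell markers summed to 10530 and 12590 against 12960 and 13790. JCHAIN, the largest of them, stood at 3844 and 5714 CPM against 7314 and 8328. The median log2 fold change of the list was -0.37, with 3 genes above 0 and 5 below (background 50.7% and 49.3%). At an unadjusted p under 0.05 edgeR gave 4 of 8 tested as lower and 1 as higher (background 4.58% and 5.42%). The lower ones were PRDM1, TNFRSF17, SLAMF7 and IRF4, which is the target of the guide, and the higher one was JCHAIN. The part of these genes in the result was not tested.

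In MPC-11 the genes of the response lay on both sides of 0, and 4 of the 7 serine and folate enzymes had both guide libraries below both controls. Of 44 genes tested, 18 had a log2 fold change above 0 and 26 below (background 48.5% and 51.5% of 10670 genes), with a median of -0.04. Guide libraries lay above both empty vector libraries for 7 genes and below for 12 (background 16.9% and 16.5%). At an unadjusted p under 0.05 in edgeR 1 gene, Ddit4, was higher and 6 were lower: Psat1, Psph, Mthfd2, Aldh1l2, Got1 and Cth (background 3.49% and 2.56%). After adjustment edgeR called 0 of the 44 (background 0.0187% higher and 0% lower), and DESeq2 also called 0 (background 1.07% and 0.478%). Group medians were 0.02 for regulators, -1.01 for serine and folate enzymes, -0.24 for other amino acid enzymes, -0.03 for transporters and 0.04 for tRNA genes.

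Psat1 stood at 158 and 103 CPM with the empty vector and 53.8 and 56.5 with the guide, a log2 fold change of -1.24 ± 0.34 (edgeR adjusted p = 0.528, DESeq2 0.0502). Psph stood at 116 and 70.1 against 32.4 and 44.5 (-1.28 ± 0.39; edgeR adjusted p = 0.592). Mthfd2 stood at 61.4 and 62.5 against 26.7 and 34.8 (-1.01 ± 0.35; edgeR adjusted p = 0.657). In all 3 the guide libraries lay below both controls, and so they did for Aldh1l2, at 11.5 and 25.4 against 4.84 and 0.506 (-2.78 ± 1.05; edgeR adjusted p = 0.737). Phgdh, the entry enzyme of the same pathway, was at 257 and 197 against 227 and 232 (0.02 ± 0.29; edgeR adjusted p = 1.00), with overlapping groups. Shmt2 overlapped too, at 338 and 509 against 423 and 347 (-0.14 ± 0.32; edgeR adjusted p = 1.00). The formate enzyme Mthfd1l was the member with both guide libraries above, at 44.7 and 40.5 against 29.7 and 25.6.

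**Figure D3:**
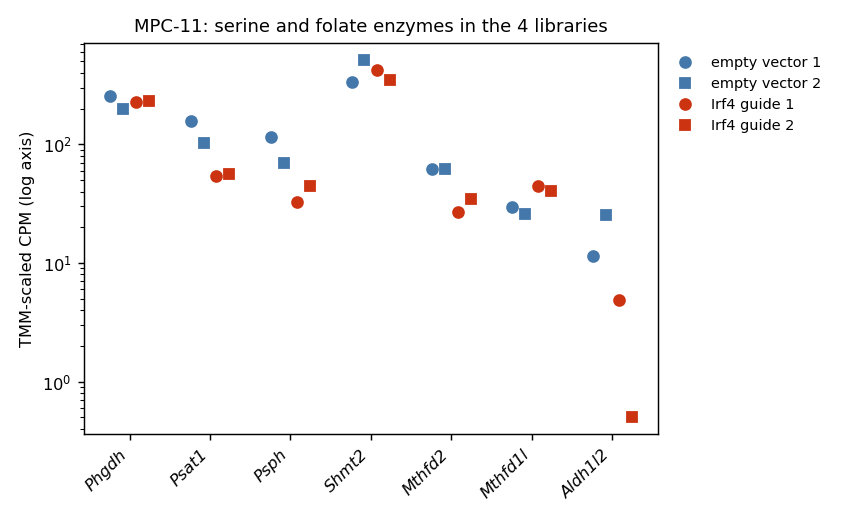
TMM-scaled CPM (log axis) of the 7 serine and folate enzymes in the 4 MPC-11 libraries; each point is a library, blue for the empty vector and red for the Irf4 guide, circles for library 1 and squares for library 2. Psat1, Psph, Mthfd2 and Aldh1l2 have both red points below both blue points, Phgdh and Shmt2 overlap, and Mthfd1l has both red points above.

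Among the regulators of MPC-11, Atf4 stood at 185 and 132 CPM against 111 and 101 (-0.58 ± 0.31; edgeR adjusted p = 0.964), without overlap. Ddit3 stood at 48.6 and 20.1 against 36.5 and 31.7, and Trib3 at 40.1 and 6.29 against 34.1 and 22.4. Both overlapped, and neither had a fold change larger than its SE (-0.01 ± 0.49 and 0.29 ± 0.79; edgeR adjusted p = 1.00 for both). Ddit4, an inhibitor of mTORC1 signalling, stood at 103 and 49.3 with the empty vector and 152 and 206 with the guide (1.23 ± 0.42; edgeR adjusted p = 0.642), without overlap. Atf3 had no count in any MPC-11 library.

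Asns in MPC-11 stood at 262 and 200 CPM against 176 and 179 (-0.38 ± 0.29; edgeR adjusted p = 1.00). Got1, the cytosolic aspartate aminotransferase, stood at 224 and 220 against 153 and 111 (-0.75 ± 0.30; edgeR adjusted p = 0.806). Both enzymes separated the groups on the lower side, and so did Cth, which makes cysteine from cystathionine, at 19.1 and 20.9 against 9.95 and 3.94. Chac1 was low and scattered, at 5.18 and 2.84 against 10.9 and 0.113 (0.46 ± 1.55; edgeR adjusted p = 1.00).

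The transporters of MPC-11 mostly overlapped. Slc7a5 stood at 508 and 543 CPM against 536 and 395 (-0.17 ± 0.30), and Slc3a2 at 424 and 516 against 461 and 417 (-0.10 ± 0.28). Slc38a2 stood at 196 and 363 against 390 and 394 (0.49 ± 0.36), above in both guide libraries. Adjusted p was 1.00 in edgeR for all 3. Slc7a11 was under the filter on low counts, with 8 and 10 counts against 8 and 7. Scaled over all 10 mouse libraries, the tRNA genes summed to 2085 and 2527 CPM with the empty vector and 2422 and 2023 with the guide, which overlap. Scaled within this comparison, 4 of the 11, Aars, Gars, Wars and Mars, lay below in both guide libraries (background 16.5%). Sars and Iars, 2 of the 11, lay above (background 16.9%).

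Cell cycle markers were below 0 for 9 of 10 genes in MPC-11 as well. Scaled over all 10 mouse libraries, they summed to 796 and 947 CPM with the empty vector and 451 and 573 with the guide. On that same scale immediate-early genes that cell dissociation induces summed to 495 and 548 against 991 and 949. Of 8 tested, 7 were above 0 (background 48.5%). At an unadjusted p under 0.05 in edgeR 4 (Fos, Junb, Jund and Btg2) were higher (background 3.49%), and 2 passed in DESeq2 (background 1.07%). Egr1, Hspa1a and Hspa1b had no count in any of the 4 libraries. Scaled within this comparison, where values are higher than on the scale of the sums, Fos stood at 0 and 0 against 1.84 and 5.90 CPM. Jund stood at 271 and 380 against 626 and 764. The part of these genes in the result was not tested.

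In splenic plasma cells most of the genes stood lower in flox/- after TMM scaling, by little. Of 46 tested, 13 were above 0 and 33 below (background 54.3% and 45.7% of 11887 genes), with a median of -0.33 against 0.09 for all genes. When libraries were scaled to their size alone, the median of the genes was 0.58 and that of all genes 0.98, so the direction turned while the distance from all genes was -0.41 and -0.40. Immunoglobulin genes took 72.2% and 73.4% of counts in flox/+ and 56.3% and 52.8% in flox/-. Without overlap 5 were higher and 13 lower (background 25.7% and 18.3%). At an unadjusted p under 0.05 in edgeR 2 were higher (Atf3 and Cth) and 2 lower (Asns and Pycr1), with a background of 8.63% and 3.85%. After adjustment edgeR called 0 (background 0% higher and 0% lower), and DESeq2 called 1 higher, Atf3, and 0 lower (background 3.9% and 1.49%).

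Asns (Entrez 27053; GRCm38 chromosome 6, 7675165 to 7693209) stood at 76.0 and 151 CPM in flox/+ and 40.5 and 47.3 in flox/-, a log2 fold change of -1.37 ± 0.42 (edgeR adjusted p = 0.293, DESeq2 0.0763). Pycr1 stood at 82.1 and 115 against 54.8 and 51.5 (-0.89 ± 0.32; edgeR adjusted p = 0.338). Neither overlapped, and Pycr1 was at 0.01 when libraries were scaled to size alone, where Asns was still below 0 at -0.44. Chac1 stood at 31.6 and 20.01 against 21.9 and 21.3 (-0.26 ± 0.38; edgeR adjusted p = 0.883), with overlap. Cth had no count in flox/+ and stood at 1.61 and 0.345 CPM in flox/-, at least 11.8-fold higher against a floor of 3 counts over the flox/+ group.

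Phgdh stood at 138 and 131 CPM in flox/+ and 88.7 and 92.3 in flox/- (-0.57 ± 0.28; edgeR adjusted p = 0.525). Psat1 stood at 27.9 and 21.0 against 16.02 and 13.6 (-0.72 ± 0.37; edgeR adjusted p = 0.544), and Shmt2 at 116 and 115 against 70.2 and 97.4 (-0.47 ± 0.31; edgeR adjusted p = 0.680). These 3 of the 7 serine and folate enzymes had no overlap between groups. All 3 turned to the higher side when scaled to size alone. Mthfd2 overlapped, at 18.5 and 38.1 against 19.2 and 21.8 (-0.46 ± 0.45; edgeR adjusted p = 0.803).

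The regulators of the splenic libraries had a median of 0.05. Atf4 stood at 45.3 and 38.9 CPM in flox/+ and 43.0 and 47.8 in flox/- (0.11 ± 0.30; edgeR adjusted p = 0.951). Ddit3 stood at 19.9 and 10.3 against 23.8 and 25.1 (0.70 ± 0.45; edgeR adjusted p = 0.665), higher in both flox/- libraries. Trib3 overlapped, at 10.4 and 20.6 against 7.76 and 12.7 (-0.60 ± 0.54; edgeR adjusted p = 0.784). Atf3, a stress-induced repressor, had no count in flox/+ and stood at 3.59 and 0.847 in flox/-, at least 26.7-fold higher against the same floor (edgeR adjusted p = 0.283, DESeq2 0.0191).

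Among the splenic transporters Slc3a2 was the most abundant, at 898 and 943 CPM in flox/+ and 1079 and 834 in flox/- (0.06 ± 0.32; edgeR adjusted p = 0.976). Slc7a5 stood at 146 and 76.8 against 67.2 and 115 (-0.29 ± 0.46; edgeR adjusted p = 0.897), and Slc38a2 at 94.2 and 56.2 against 40.2 and 62.5 (-0.55 ± 0.40; edgeR adjusted p = 0.713). All 3 overlapped. Slc7a11 was near 0, at 0.117 and 0 against 0.897 and 0.345. The tRNA genes summed to 1469 and 1601 CPM in flox/+ and 1165 and 1351 in flox/-, without overlap. As shares of all counts the order turned, with 0.0721% and 0.0694% in flox/+ and 0.0912% and 0.125% in flox/-. With TMM scaling within this comparison 4 of 11 (Aars, Gars, Mars and Tars) separated on the lower side (background 18.3%). Tars, the threonyl-tRNA synthetase, stood at 57.8 and 73.3 CPM in flox/+ and 42.1 and 42.2 in flox/- (-0.64 ± 0.30; edgeR adjusted p = 0.497), and at 0.27 when scaled to size alone.

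Markers of other cell types differed between the same splenic libraries. Macrophage and monocyte genes summed to 3078 and 4039 CPM in flox/+ and 19160 and 9022 in flox/-. At an unadjusted p under 0.05 in edgeR 11 of 14 tested genes were higher (background 8.63%). T cell genes summed to 15.2 and 29.98 against 195 and 539 (7 of 9), and B cell genes to 237 and 260 against 550 and 901 (6 of 10). Erythroid genes summed to 50.6 and 7.77 against 977 and 82.8, and NK genes to 14.8 and 21.9 against 56.0 and 133. In flox/+ 6 or 7 of 11 T cell genes had no count and in flox/- at most 1. Cell cycle genes summed to 202 and 171 CPM in flox/+ and 271 and 347 in flox/-. Of 10 genes, 7 separated on the higher side and 4 were higher at an unadjusted p under 0.05 in edgeR (background 25.7% and 8.63%). Plasma cell genes summed to 79060 and 98770 CPM in flox/+ and 36390 and 33670 in flox/-, none at 0, and Jchain made up most of each sum. The median log2 fold change of this list was -0.94, with 7 of 9 tested below 0 (background 45.7%) and Prdm1 (0.22) and Irf4 (0.12) above. When scaled to size alone its median was -0.03. The part of these markers in the values of the response genes was not tested.

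**Figure D4:**
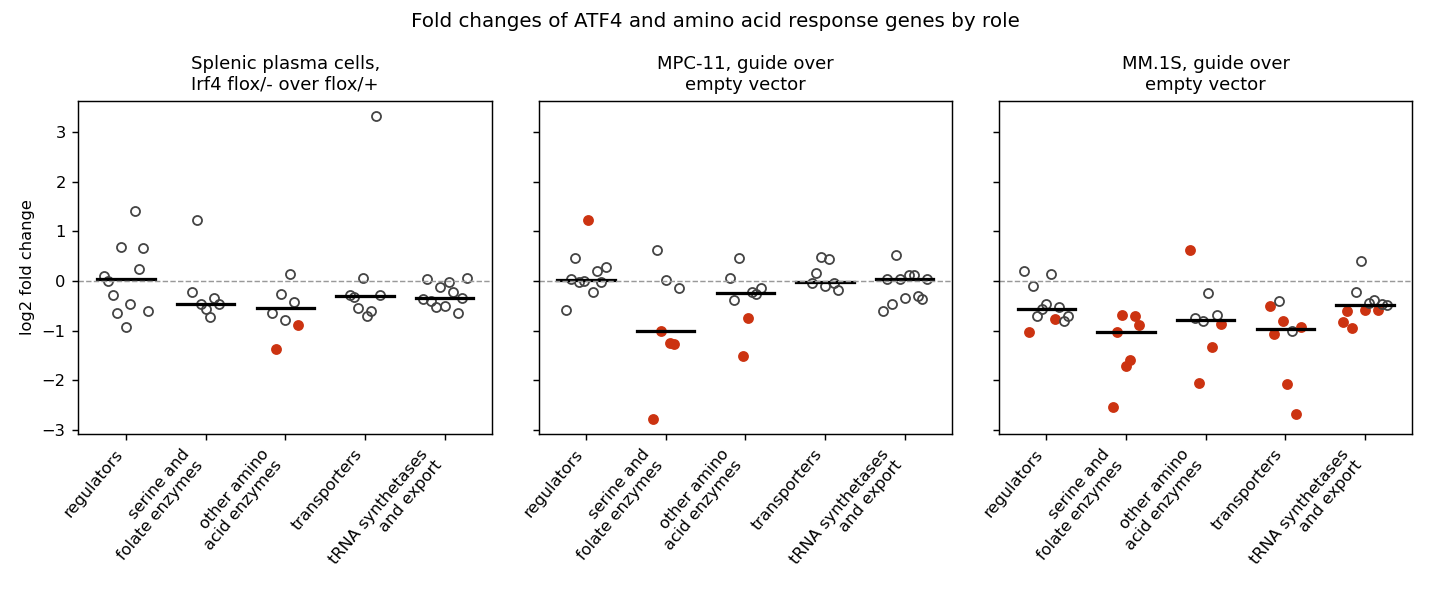
Log2 fold change (IRF4-targeted over control) of each tested gene by role in the 3 comparisons, with a bar at the group's median; filled red points have an unadjusted edgeR p under 0.05. Atf3 and Cth, without a count in splenic flox/+, and the 2 secreted or surface targets are not drawn. Serine and folate enzymes have the lowest group median in MPC-11 (-1.01) and in MM.1S (-1.03).

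Whether the effect differed between the 2 mouse systems was tested directly over 47 of the genes as splenic minus MPC-11. After adjustment edgeR called 0 (background 0%), at an unadjusted p under 0.05 it gave 2, Cth and Slc6a9 (background 6.21%), and DESeq2 called 1, Cth (background 1.51%). For Asns the difference was -0.99 ± 0.54 on the log2 scale and for Psph 0.94 ± 0.66. Differences between mouse and human cells were not tested. Side by side, PSAT1 stood at -1.59 in MM.1S, -1.24 in MPC-11 and -0.72 in splenic plasma cells, PHGDH at -1.72, 0.02 and -0.57, and SLC7A5 at -0.92, -0.17 and -0.29.

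The levels in control cells were compared between MPC-11 with the empty vector and splenic flox/+ plasma cells. The line carried Cas9 and vector and received doxycycline, while the splenic cells carried a conditional Irf4 allele and came from mice given tamoxifen. Line, culture, animal and treatment cannot be told apart in this contrast, and it shares its libraries with the comparisons above. edgeR called 8 genes higher in the line and 6 lower of 44 tested (background 12% and 15.6% of 11465 genes). TMM values are relative to the bulk of genes: scaling to size alone raised the median of all genes by 1.88 and that of the 44 from 0.53 to 2.43. Slc3a2 stood at 1208 and 1382 CPM in the splenic libraries and 232 and 286 in the line (log2 fold change -2.32 ± 0.44; edgeR adjusted p = 0.00885). Chac1 stood at 42.5 and 29.3 against 2.83 and 1.58 (-4.03 ± 0.63; edgeR adjusted p = 0.00435), and Pycr1 at 111 and 168 against 22.2 and 20.7 (-2.70 ± 0.42; edgeR adjusted p = 0.00448). These 3 were lower in the line in every setting run, and Chac1 alone of the 6 lower genes still passed with size alone (-2.23, adjusted p = 0.0339).

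Ppp1r15a, the eIF2 phosphatase subunit GADD34, stood at 92.1 and 252 CPM in the splenic libraries and 29.9 and 22.5 in the line (-2.71 ± 0.57; edgeR adjusted p = 0.0122). Cebpg, a C/EBP partner of ATF4, stood at 22.0 and 58.4 against 9.37 and 3.99 (-2.59 ± 0.70; edgeR adjusted p = 0.0322), and Pck2 at 114 and 158 against 59.5 and 26.6 (-1.66 ± 0.50; edgeR adjusted p = 0.0460). With size alone none of the 3 passed, and Pck2 turned to 0.17. Immediate-early genes that cell dissociation induces were lower in the line for 10 of 10 tested genes, 8 of them past the edgeR threshold (background 15.6%). Their part in the values of Ppp1r15a was not tested.

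The 8 genes that were higher in the line covered every role except the serine enzymes. Stc2, a secreted glycoprotein, had no count in the splenic libraries and stood at 52.6 and 30.1 CPM in the line, at least 340-fold higher against a floor of 3 counts over the group (edgeR adjusted p = 0.000962). Cth, also without a count, stood at 10.4 and 11.6, at least 94.5-fold higher (adjusted p = 0.00445). Slc1a4, a neutral amino acid transporter, was at 22.0 and 6.21 and in the line at 71.9 and 116 (2.74 ± 0.66; edgeR adjusted p = 0.0210). Xpot, the tRNA exporter, was at 27.8 and 13.04 and in the line at 73.5 and 87.4 (1.98 ± 0.49; edgeR adjusted p = 0.0235), and Eprs at 92.5 and 67.0 and in the line at 157 and 341 (1.64 ± 0.49; edgeR adjusted p = 0.0456). Gpt2, a mitochondrial alanine aminotransferase, was at 19.3 and 6.29 and in the line at 50.2 and 70.2 (2.23 ± 0.61; edgeR adjusted p = 0.0331). Got1 was at 26.7 and 43.0 and in the line at 122 and 122 (1.81 ± 0.42; edgeR adjusted p = 0.0176), and Sesn2, a stress-induced inhibitor of mTORC1, at 17.3 and 21.0 and in the line at 53.5 and 58.7 (1.55 ± 0.41; edgeR adjusted p = 0.0294). All 3 separated the groups.

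These calls did not rest equally on the libraries. Stc2, Cth, Chac1, Pycr1 and Slc3a2 passed without each of the 4 libraries in turn, and the number of genes called ranged from 6 to 11 in those fits. Sesn2 passed in none of the 4, Xpot and Gpt2 only without splenic library a, and Eprs and Pck2 only without the first empty vector library. Atf4 itself stood at 61.0 and 57.0 CPM against 101 and 73.4, which did not pass (0.56 ± 0.39; edgeR adjusted p = 0.334).

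The 2 single reference libraries allow a description only, without a replicate check. On a scale set over all 10 mouse libraries, the follicular B cell library had 30.2 CPM of Atf4 and the bone marrow plasma cell library 92.7. Asns, Chac1, Slc6a9, Aldh1l2 and Cth had no count in follicular B cells, where a count of 0 allows up to 0.0763 CPM, and stood at 195, 58.4, 46.9, 14.1 and 1.44 CPM in bone marrow plasma cells. Pycr1 stood at 2.14 against 309 CPM and Slc3a2 at 105 against 4447. The tRNA genes differed by less, 784 against 2101 CPM in sum, and the folate enzyme Mthfd1l was the reverse, at 22.8 against 11.9. These values depend on TMM scaling, as immunoglobulin genes took 3.245% of counts in follicular B cells and 69.8% in bone marrow plasma cells. Before that scaling Atf4 had 1188 counts in follicular B cells and 1028 in bone marrow plasma cells. The tRNA genes other than Aars, Mars and Nars also had fewer counts in bone marrow plasma cells. Vldlr had no count in any of the 10 mouse libraries.

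Among the mouse plasma cell libraries on this common scale, the bone marrow library had the highest level of Slc3a2, Slc7a5, Phgdh, Shmt2, Pycr1, Mars and Chac1. Of these, only Slc3a2 and Pycr1 were also highest there in counts before TMM scaling. The bone marrow library had the lowest level of Ddit4, at 1.71 CPM, of all 10 libraries. In the deposited log2 FPKM values, which account for gene length and so allow genes to be compared, Slc3a2 was the highest of the response genes in that library, at 10.76, followed by Phgdh at 8.02, Shmt2 at 7.96 and Slc7a5 at 7.91. In the MPC-11 empty vector libraries Slc3a2 stood at 7.48 and 7.87 on that scale and Shmt2 at 7.47 and 8.21, which overlap, and Eif4ebp1, an inhibitor of cap-dependent translation, at 8.59 and 7.92.

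**Figure D5:**
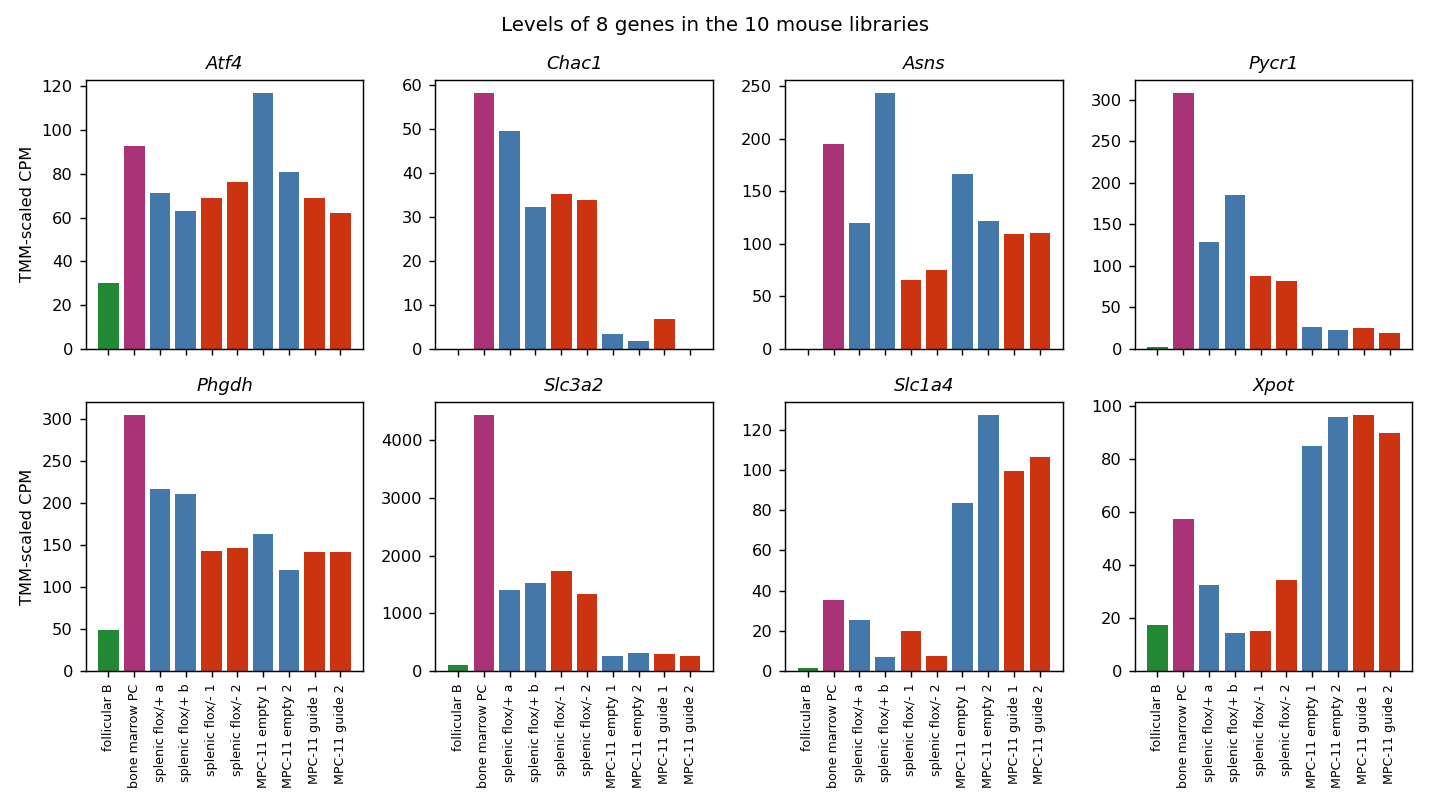
TMM-scaled CPM (linear axis from 0, scaled over all 10 mouse libraries) of 8 genes in each mouse library; each bar is a library, green for follicular B cells, purple for bone marrow plasma cells (PC), blue for controls and red for IRF4-targeted libraries. Asns and Chac1 have no count in follicular B cells, Slc3a2 is highest in bone marrow plasma cells at 4447 CPM, and Slc1a4 and Xpot are highest in the MPC-11 libraries.

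Genes of the pathway outside the list were read from 7 further lists, and edgeR called 0 of them after adjustment in each of the 3 IRF4 comparisons. At an unadjusted p under 0.05, 3 of 97 were higher and 2 lower in splenic plasma cells (background 8.63% and 3.85% of all genes), and 4 of 88 higher and 1 lower in MPC-11 (background 3.49% and 2.56%). In MM.1S 6 of 98 were higher and 7 lower (background 5.42% and 4.58%). DESeq2 called 1 higher and 0 lower in splenic plasma cells (background 3.9% and 1.49%), 1 and 0 in MPC-11 (1.07% and 0.478%), and 1 and 3 in MM.1S (1.53% and 1.34%). The splenic counts lie below the shares over all genes. The eIF2 kinases and eIF2 and eIF2B subunits had medians of -0.04 in splenic plasma cells, 0.12 in MPC-11 and -0.01 in MM.1S, with 0, 0 and 1 gene past an unadjusted p of 0.05. That gene is EIF2AK4, which encodes GCN2, at 86.3 and 74.0 CPM against 36.4 and 46.0 with the guide (-0.96 ± 0.24; edgeR adjusted p = 0.310, DESeq2 0.0219). The other cytosolic tRNA synthetases had a median of -0.17 in MM.1S, with 2 of 10 lower at an unadjusted p under 0.05, and the mitochondrial ones 0.08, with 1 of 17 lower. YARS stood at 401 and 364 CPM against 230 and 242 (-0.69 ± 0.18; edgeR adjusted p = 0.310, DESeq2 0.0126). Both genes separated the groups.

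Of 13 amino acid transporters outside the list tested in MM.1S, 9 were above 0 and 4 below, with a median of 0.45. Without overlap 5 were higher and 3 lower (background 22.4% and 18.9% of all genes). The lower ones were SLC38A1 at -0.45, SLC38A5 at -0.34 and SLC36A4 at -0.40. At an unadjusted p under 0.05 in edgeR 3 were higher and 0 lower (background 5.42% and 4.58%). SLC43A2, a facilitated transporter of large neutral amino acids, stood at 8.22 and 11.98 CPM with the empty vector and 37.9 and 62.2 with the guide (2.31 ± 0.37; edgeR adjusted p = 0.202, DESeq2 6.1e-06). In MPC-11 Slc43a2 stood at 39.7 and 45.1 against 97.1 and 78.7 (1.05 ± 0.33; edgeR adjusted p = 0.595, DESeq2 0.158). In splenic plasma cells it stood at 21.3 and 18.1 against 71.1 and 35.1 (1.43 ± 0.44; edgeR adjusted p = 0.295, DESeq2 0.0968). In each comparison both IRF4-targeted libraries lay above both controls, and it was among the 3 genes of the further lists with the smallest p.

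The other genes with the smallest p differed between systems. In MPC-11 Tsc1, a brake on mTORC1, stood at 0.0569 and 0.302 CPM against 3.36 and 12.1 (edgeR adjusted p = 0.499, DESeq2 0.00696), and Cdkn1a at 233 and 198 against 373 and 383 (0.81 ± 0.28; edgeR adjusted p = 0.657). In splenic plasma cells Hmox1, which degrades haem and is abundant in macrophages, stood at 62.2 and 30.2 against 630 and 107 (edgeR adjusted p = 0.292, DESeq2 0.00453). Cars2 stood at 16.6 and 18.3 against 7.02 and 9.03 (-1.12 ± 0.42; edgeR adjusted p = 0.367). None of them overlapped between groups.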

How the data were processed

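Each species has a deposited table of counts (whole reads per gene, not normalized), and the authors added log2 FPKM values for every library; per the submitters' processing notes, Subread 1.6.0, featureCounts and limma were used with mm10 and hg38. Order, annotation, filters and the offset of the log2 FPKM values are not given in the sources used here. The highest log2 FPKM was the same in 7 mouse libraries, so those values may have been normalized further; they served as an alternative and to compare genes within a library. The 2 flox/+ count columns share a name and are called a and b. Entries without a symbol (958 mouse and 450 human) held at most 0.306% of counts and were left out.

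The members and the further gene lists were chosen with earlier results of these data known, and no list was tested as a set. All 49 members could be named. In the 3 IRF4 comparisons, values in every library are given for a fixed group of 13 genes, for the tRNA genes as a sum and for the 6 members with the smallest p; in all comparisons they are given for any member past the edgeR threshold; of the further lists the 3 genes with the smallest p are given. Other members are named where a count is small, chosen after their values were seen.

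Each comparison was fitted on its own 4 libraries over all genes with edgeR 4.0.16 in R 4.3.3: TMM scaling, filterByExpr (minimum count 10) and the quasi-likelihood test, with p adjusted by Benjamini-Hochberg and a threshold of 0.05. An interaction contrast over 8 libraries compared the effects in the 2 mouse systems. SE is the log2 fold change divided by the root of F. CPM is scaled within a comparison, and over a species for sums and for the reference libraries. DESeq2 1.42.0 and limma 3.58.1 (on the deposited log2 FPKM) were alternatives, as were other scalings, no filter, no immunoglobulin genes, leaving out each library and the replicate number as a block. DESeq2 counts beside a background cover the genes edgeR tested. Floors cover counting error only. Libraries of a group differed beyond counting error, with a chi-square per degree of freedom of 37.2 to 266.

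Of genes given simulated 4-fold changes, edgeR recovered 1.49% for the splenic libraries, 41.8% for MPC-11 and 44.8% for MM.1S. DESeq2 recovered 31.3%, 58.2% and 62.7%. The same simulated data also held 2-fold and 8-fold changes. Over all unchanged genes, edgeR made 5, 10 and 1 false calls and DESeq2 56, 46 and 34. DESeq2 calls are therefore printed beside those of edgeR and not in their place. Matches to 2 IRF elements were also counted in the promoter windows and are not reported here. Human promoter sequences, human gene positions and protein sequences were not used here.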

Additional observations from a re-analysis of the deposited data

How the results depend on the processing

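In splenic plasma cells scaling to library size alone turned the median of the members from -0.33 to 0.58, and Trib3 to 0.34, Chac1 to 0.62, Phgdh to 0.32, Psat1 to 0.15, Shmt2 to 0.45, Mthfd2 to 0.46, Slc7a5 to 0.62, Slc38a2 to 0.35, Pycr1 to 0.01 and Tars to 0.27; that scaling moved all genes by 0.89. DESeq2 called 650 genes and 1 member there. The MPC-11 median was -0.26 and Phgdh -0.12 with size alone, and the 2 genes called became 0 with size alone, 169 with DESeq2, 32 without the filter and 0 with limma on log2 FPKM, where Ddit3 stood at 0.09 and Chac1 at -0.58. In MM.1S, where edgeR called 1 gene and 0 members, DESeq2 called 366 genes and 13 members, the fit without the filter 289 and 12, and limma 9 and 0. In MPC-11 over splenic flox/+, size alone gave 6385 genes, 34 members, a median of 2.43 and Pck2 at 0.17, and limma 9 members against 14. For the difference of effect DESeq2 called 196 genes and 1 member, and the fit without the filter 8 genes. Scaling by DESeq2 size factors and leaving out immunoglobulin genes turned no median and moved no count of members. The cause of these changes was not tested.

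With the replicate number as a block, the counts were 208 genes and 8 members in MM.1S, 0 genes in MPC-11 (Ddit3 0.12, Chac1 -1.44) and 377 genes and 0 members by limma on log2 FPKM in splenic cells. Deviations of same-numbered libraries from their group means correlated over all genes at -0.077 in MPC-11 and 0.091 in MM.1S, and over the members at -0.119 and 0.415. The labels give no pairing, and there are only 2 pairs.

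Leaving out each library in turn gave medians of the members from -0.51 to -0.18 in splenic cells, -0.17 to 0.00 in MPC-11, -1.05 to -0.39 in MM.1S and 0.36 to 0.55 in MPC-11 over splenic flox/+. Genes called ranged from 0 to 0, 1 to 37, 0 to 966 and 1472 to 3081, and members from 0 to 0, 0 to 0, 0 to 16 and 6 to 11. Among the genes with values in every library, those that changed sign in splenic cells were Chac1 (-0.55 to 0.11), Mthfd2 (-0.89 to 0.14), Slc7a5 (-0.73 to 0.25) and Slc3a2 (-0.14 to 0.22), while Atf4 came down to 0.00 (up to 0.22) and Irf4 ranged from -0.33 to 0.76. In MPC-11 they were Ddit3 (-0.49 to 0.76), Trib3 (-0.48 to 2.17), Chac1 (-5.07 to 1.45), Phgdh (-0.14 to 0.22), Shmt2 (-0.40 to 0.21), Slc7a5 (-0.41 to 0.03) and Slc3a2 (-0.23 to 0.07), and in MM.1S DDIT3 (-1.05 to 0.46) and TRIB3 (-1.30 to 0.25). A fit without 1 library leaves 1 sample in a group, whose spread is taken from the other group. With 2 libraries per group at these depths, edgeR recovered 0% to 4.48% of simulated 2-fold changes and DESeq2 1.49% to 28.4%. Recovery was not split by level, so it was not measured for genes under a few CPM.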
